A study of Homo sapiens with 4 samples.

Results

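The genes described here are the 41 whose RNA value in THP-1 cells was higher after 12 h with platelet-like particles than with Pam3CSK4 alone and than after 24 h, chemokine genes and some other families aside. THP-1 is a monocytic cell line that was derived from a human leukaemia. A gene was chosen where its value on the 12 h array was at least 0.8 log2 above both the Pam3CSK4 array and the 24 h array, and was itself at or above the median of all values on the 4 arrays, called the floor from here on. All values are log2, so a difference of 1 is 2-fold. Of 19775 genes on the array, 58 met these thresholds. Symbols that start with CXCL, CCL, IFI, OAS or MT1 and a few single genes were then left out, which removed 17 and left the 41. The 17 were the chemokine genes CXCL1, CXCL2, CXCL3, CXCL6, CXCL8, CCL2, CCL8 and CCL22, and OAS3, IFI44L, RSAD2, LAMP3, SLAMF7, CD80, SERPINE2, COXFA4L3 and HMGN2P46. The measured values therefore chose the genes, and their 12 h peak is a description and not a finding.

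The series held 4 arrays of total RNA, 1 per condition, all of the same cell line. They were resting cells, cells given Pam3CSK4, and Pam3CSK4-treated cells kept with platelet-like particles for 12 h or for 24 h. The lipopeptide Pam3CSK4 mimics bacterial lipoproteins and is sensed by TLR2 together with TLR1. The labels do not name the cells that the particles came from, and they give no treatment time for Pam3CSK4 alone, so time and particles cannot be told apart. A single array per group leaves the spread among cultures unknown, no test was possible, and precision is limited by the number of arrays.

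Monocytes that sense a bacterial lipopeptide switch on NF-kB and MAP kinase signalling, which drives inflammatory genes, and secondarily an interferon programme of antiviral genes. Many such genes are induced in pulses, because the same pathways induce their own inhibitors and because the RNAs turn over quickly. Platelets and platelet-derived particles bind monocytes through adhesion receptors and bring proteins and RNA with them.

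Most monocytic markers were read on each array. Of 10 monocytic markers with a probe set of their own, 10 reached the floor at rest and 9 on each other array, where MPO, a granule enzyme of immature cells, lay under it. CD14, a co-receptor of bacterial products, was lower at 12 h, at 7.74 log2, than with Pam3CSK4 (8.93) or at 24 h (9.13), the opposite course to that of the 41 genes. ITGAM, an integrin chain of myeloid cells, and the lysozyme gene LYZ had the same course as CD14, with margins of -0.72 and -0.52. CEBPA, CTSS, SPI1 and FCER1G had margins of -0.29, -0.29, -0.15 and -0.01. CSF1R, MPO and TYROBP went the other way, at 0.33, 0.21 and 0.11, and the median margin of the 10 was -0.22. The dendritic cell list had a mean over 6 genes of 7.04 with Pam3CSK4, 7.73 at 12 h and 7.08 at 24 h. Of these 6, 4 reached the floor, CCR7 at 12 h only, with a median margin of 0.54. LAMP3 led them at 2.48, but it met the thresholds itself and was left out by symbol only. CD83, CCR7 and CD1C had margins of 0.76, 0.31 and 0.26. CD1A and FCER1A stayed below the floor on each array, and CD1A was lower at 12 h, at 5.80, than with Pam3CSK4, at 6.02. The part of this list's course in that of the 41 genes was not tested. The 3 probe sets that read the fetal globin genes HBG1 and HBG2 together were 2.62 to 4.04 log2 higher at 12 h than with Pam3CSK4. They were higher still at 24 h, each at least 3.38 above Pam3CSK4, so these probe sets did not share the peak. Other erythroid markers averaged 6.56 with Pam3CSK4, 6.80 at 12 h and 6.68 at 24 h over 13 genes. Of these, 6 reached the floor, with a median margin of 0.09. CA1, HBB, AHSP and EPOR had margins of 0.54, 0.39, 0.16 and 0.03, while HBE1 and TFRC had -1.21 and -0.40. Markers of platelets and megakaryocytes averaged 6.16 with Pam3CSK4, 6.38 at 12 h and 6.24 at 24 h over 14 genes, and of the 9 that reached the floor 0 differed 2-fold between 12 h and Pam3CSK4. The median margin of those 9 was 0.16. TREML1, SELP, GNG11, GP1BA and GP9 were 0.54, 0.51, 0.39, 0.38 and 0.36 higher at 12 h than with Pam3CSK4. ITGB3 and CMTM5 were 0.34 and 0.15 higher, while ITGA2B and NRGN differed by -0.04 and -0.003. In resting cells, without particles, the 14 genes averaged 6.27. TREML1, GP9, NRGN, ITGA2B and CMTM5 were higher at rest than at 12 h, and SELP, GNG11, GP1BA and ITGB3 were lower. PF4 and PPBP, the defining chemokines of platelet granules, were below the floor on each array. RNA integrity can be read from the difference between 3' and 5' probe sets of control genes, which for GAPDH was 0.92 log2 at 12 h against 0.59 with Pam3CSK4 and 0.70 at 24 h. That of ACTB was 3.17 at 12 h against 2.91 and 2.90. Among the 3 arrays with Pam3CSK4, the wider gap at 12 h moved with the peak of all 41 genes, and its part in the peak was not tested. Both gaps were widest at rest, 2.16 for GAPDH and 3.41 for ACTB, where 36 of the 41 genes had their lowest value. In bulk RNA, a change in the share of cells that express a gene and a change in RNA per cell cannot be told apart.

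Over the 41 genes the 12 h margin, meaning the 12 h value minus the higher of the Pam3CSK4 and 24 h values, ran from 0.80 to 1.76 log2 with a median of 0.92. Such a peak was held by 0.432% of the 13422 genes that reached the floor on at least 1 array, counted before symbols were left out. A dip, 12 h at least 0.8 log2 below both, was held by 85 genes or 0.633%, with no floor set on the Pam3CSK4 and 24 h values. With both of those values at the floor or above, as the mirrored rule asks, 81 genes dipped. A 24 h peak of the same size was held by 1 gene or 0.00745%. At 12 h the values of the 41 spanned 6.28 for SLC12A8 to 12.89 for ISG15, with a median of 8.38. Measured against rest, 39 of the 41 were at least 2-fold higher at 12 h, where 5.1% of all genes tested were. The rule required a high 12 h value, so the selection sets this share in part. In 24 of the 41 the 12 h value was at least 2-fold above that with Pam3CSK4, a share that the selection sets (background 0.41%). Of the members just inside the threshold, MAP3K8 had a margin of 0.802, ZMIZ1-AS1 0.809 and PILRA 0.812. Just outside lay RASSF8-AS1 at 0.796, the phosphatase gene DUSP10 at 0.791 and the stress gene OSGIN1 at 0.785. The threshold thus cut through a continuous range and not at a gap.

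**Figure D1:**
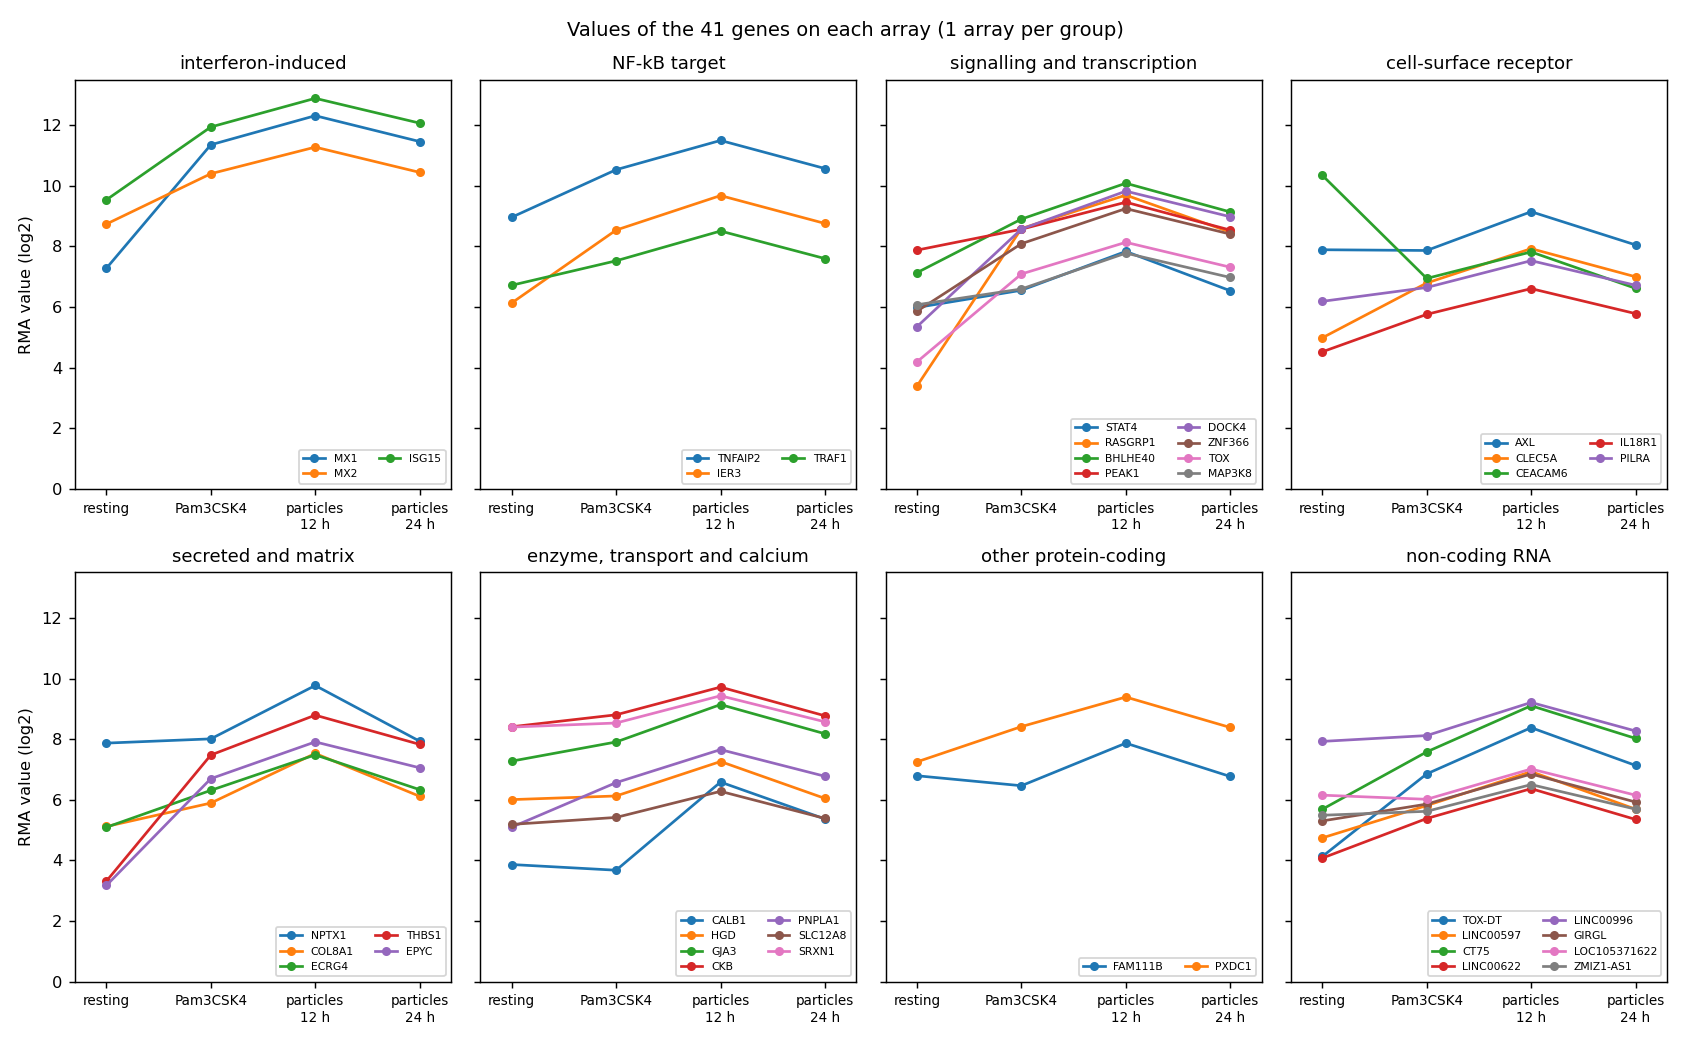
Log2 RMA values (vertical axis) of the 41 genes on the 4 arrays (horizontal axis), 1 line per gene and 1 panel per role, with 1 array per group and no error bars. Each line is higher at 12 h than with Pam3CSK4 and at 24 h, as the choice of genes requires, while the resting values spread from 3.18 for EPYC to 10.35 for CEACAM6.

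The interferon-induced genes among the members were ISG15, MX1 and MX2. ISG15 encodes a ubiquitin-like protein that is attached to other proteins in antiviral defence. It stood at 9.54 at rest, 11.94 with Pam3CSK4, 12.89 at 12 h and 12.07 at 24 h. MX1, a dynamin-like GTPase that blocks viral nucleocapsids, went through 7.28, 11.35, 12.31 and 11.46 on the same arrays. Its neighbour on chromosome 21 in RefSeq GRCh38.p14, the related GTPase gene MX2, stood at 8.74, 10.40, 11.28 and 10.44. In each of them the widest step was from rest to Pam3CSK4, by 1.66 to 4.07 log2, and the 12 h step added 0.88 to 0.96. At 24 h they were 0.04 to 0.13 above Pam3CSK4 alone.

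Most other interferon-induced genes were also highest at 12 h, by less. Of 36 listed, 33 reached the floor on an array and 29 of these were highest at 12 h among the 3 arrays with Pam3CSK4, which held for 33.5% of all genes tested. Their median margin was 0.41 log2, against -0.09 over all genes. In 18 of the 33 the margin was at least 0.4, against 2.85% of all genes. In 4 it was at least 0.8, namely the 3 members and RSAD2, which the rule leaves out. These 4 met the rule's thresholds and are counted in the 29, the 18 and the median. The selection therefore sets those figures in part. EPSTI1 was near the threshold, with a margin of 0.78, followed by HERC6, an ISG15 ligase family gene, at 0.67. SAMD9L stood at 0.67 and the ISG15-removing protease gene USP18 at 0.67. Most of the list was already high with Pam3CSK4, where 29 of 33 were at least 2-fold above rest.

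The start regions of the members were searched on both strands for the core of the interferon-response element, a pair of GAAA blocks set 2 bases apart, because the interferon-induced members had like courses. RefSeq windows from 250 bases before to 50 after a transcript start were found for 28 of the 41 genes, 40 windows in all. The core was in 6 of the 40 windows, of 5 genes, and in 3.57% of all 35116 windows. The stretch before the ISG15 start holds overlapping matches between 113 and 98 bases before it. It is shown whole, with the matches in capitals, as the only one at the outermost start of its gene (GRCh38.p14, chr1:1013247-1013496, plus strand).
ISG15: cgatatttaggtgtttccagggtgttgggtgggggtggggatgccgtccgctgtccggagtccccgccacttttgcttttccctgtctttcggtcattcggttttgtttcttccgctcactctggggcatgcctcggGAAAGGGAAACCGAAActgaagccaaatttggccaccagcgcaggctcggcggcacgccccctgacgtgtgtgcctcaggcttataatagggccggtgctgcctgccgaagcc

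For the other genes with a match before a start, 30 bases around it are printed for comparison, also 5' to 3' on the plus strand and with the match in capitals. They lie at chr21:41431844-41431873 for MX1, chr19:41226557-41226586 for AXL, chr10:30434055-30434084 for MAP3K8 and chr2:102356253-102356282 for IL18R1. Each belongs to a transcript start other than the outermost one of its gene.
MX1: ggtcactctgTTTCTCTTTCcgtgaataaa
AXL: cgctgacggaGAAAAGGAAActttgtgtct
MAP3K8: agagaaagggGAAATGGAAAagtcggggag
IL18R1: atcacacctctcTTTCACTTTCcacggtag
The remaining match, in another MX1 window, lies after the start. AXL, MAP3K8 and IL18R1, described further on, were not on the interferon list. MX1 and IL18R1 carry the match in the reverse orientation.

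Further motifs were searched on both strands of the same windows. A strict form of the NF-kB core was in 0 of the 40 member windows and in 1.91% of all windows, while a looser form, which includes the strict one, was in 3, of MAP3K8 and MX1, against 6.52%. The AP-1 core TGANTCA was in 4 windows, of DOCK4, MAP3K8, MX1 and STAT4, against 7.71%, and the antioxidant core TGACNNNGC in 7, of 6 genes, against 13.3%. TATAAA was in 5 windows, against 11.5%. The cyclic AMP element TGACGTCA and the heat shock element were in 0, against 1.85% and 0.49%. A match describes letters in a window and is not a measured site, and the absence of one says nothing of the factor.

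NF-kB targets made up another role group, of 3 genes. TNFAIP2, a gene named for its induction by tumour necrosis factor, stood at 8.96 at rest, 10.53 with Pam3CSK4, 11.50 at 12 h and 10.57 at 24 h. IER3, an early response gene that modulates survival, stood at 6.14, 8.54, 9.68 and 8.76. TRAF1, an adaptor of tumour necrosis factor receptors, stood at 6.72, 7.53, 8.51 and 7.60. All were highest at 12 h and within 0.22 log2 of Pam3CSK4 alone at 24 h. A second TNFAIP2 probe set had a margin of 0.21, and a second TRAF1 probe set, under the floor on each array, had 0.49. In the wider list of NF-kB target and feedback genes, 17 of 19 tested were highest at 12 h among the arrays with Pam3CSK4, with a median margin of 0.26. Over all genes tested the share was 33.5% and the median -0.09. The 17 include the 3 members, which the rule chose for being highest at 12 h. These 3 alone among the 19 had a margin of at least 0.8, which restates the rule, against 0.432% of all genes tested. The dendritic maturation marker CD83 followed at 0.76 and the NF-kB subunit gene REL at 0.57.

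Signalling and transcription genes formed one of the largest groups, with 8 members. STAT4, which relays signals of interleukin-12 and type I interferon, led them. It stood at 5.99 at rest, 6.56 with Pam3CSK4, 7.84 at 12 h and 6.54 at 24 h, so the 24 h value was level with that of Pam3CSK4. RASGRP1, an exchange factor that activates Ras in response to diacylglycerol, had the widest step with Pam3CSK4 of the 41 genes. It went from 3.40 at rest, a value under the floor, to 8.59, then 9.70 at 12 h and 8.47 at 24 h. DOCK4, an exchange factor for Rac, stood at 5.36, 8.57, 9.83 and 8.98, and kept 32.5% of its 12 h step at 24 h on the log2 scale. Of its 3 other probe sets, the one that reached the floor had a margin of 0.72.

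The kinase and transcription factor genes of this group differed in how well a second probe set shared the peak. MAP3K8, the kinase that links Toll-like receptors to ERK, stood at 6.08, 6.60, 7.78 and 6.98, and a second probe set had a margin of 0.08, with 7.42 at 12 h and 7.33 at 24 h. BHLHE40, a helix-loop-helix repressor, stood at 7.14, 8.90, 10.09 and 9.14, and its second probe set had a margin of 0.13. PEAK1, a pseudokinase of the cytoskeleton, stood at 7.88, 8.57, 9.46 and 8.54, with a margin of 0.02 on a second probe set. For these genes the peak was therefore read clearly by only 1 of 2 probe sets. The second probe sets of BHLHE40 and PEAK1 lay near the floor on each array, at 6.02 to 6.28 and 6.02 to 6.27. At that level the lack of a clear peak says little.

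ZNF366, a zinc finger factor of dendritic cells also called DC-SCRIPT, stood at 5.87 at rest, 8.09 with Pam3CSK4, 9.25 at 12 h and 8.41 at 24 h. Its other probe set, at most 3.38 on each array and so far under the floor, had a margin of -0.44. TOX, a nuclear HMG-box protein best known from T-cell development, stood at 4.20, 7.09, 8.14 and 7.32. The non-coding gene TOX-DT, next to TOX in RefSeq GRCh38.p14 and named as its divergent transcript, stood at 4.13, 6.86, 8.38 and 7.14. Each was read by its own probe set, and the pair had like differences: 2.90 and 2.72 between Pam3CSK4 and rest, and 1.04 and 1.53 between 12 h and Pam3CSK4. A second TOX probe set, under the floor on each array, did not share the first of these. Its differences were 0.07 and 0.63, with a margin of 0.41.

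Cell-surface receptors and adhesion molecules made up 5 members. AXL, a receptor tyrosine kinase that binds phosphatidylserine on dying cells and particles through the bridge protein GAS6, stood at 7.89 at rest and 7.87 with Pam3CSK4. It was 9.15 at 12 h and 8.05 at 24 h. AXL thus stood higher at 12 h only, and its second probe set had a margin of 0.36. CLEC5A, a lectin-like receptor of myeloid cells that signals through DAP12, stood at 4.99, 6.80, 7.93 and 7.001. IL18R1, the ligand-binding chain of the interleukin-18 receptor, reached 6.61 at 12 h and was under the floor on the other arrays, at 4.53, 5.76 and 5.79.

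PILRA, an inhibitory receptor of myeloid cells, stood at 6.191 at rest, 6.65 with Pam3CSK4, 7.53 at 12 h and 6.72 at 24 h. A second PILRA probe set had a margin of 0.71. CEACAM6, an adhesion molecule of granulocytes, ran against the other members. It was 10.35 at rest, 6.95 with Pam3CSK4, 7.82 at 12 h and 6.62 at 24 h, so that its 12 h value differed from the resting one by -2.53. Its second probe set, not used by the rule, had the same course at 9.04, 6.03, 6.83 and 5.99, a margin of 0.81. CEACAM6 alone among the 41 had its highest value at rest.

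Secreted and matrix genes had the widest median margin of any role group, 1.15 log2 over 5 genes. NPTX1, a secreted pentraxin known from synapses, was level at 7.87 at rest, 8.01 with Pam3CSK4 and 7.93 at 24 h, and stood at 9.77 at 12 h, 3.39-fold above Pam3CSK4. It has a single probe set. COL8A1, a chain of the network collagen type VIII, stood at 5.12, 5.89, 7.53 and 6.12, above the floor at 12 h only. Its 2 other probe sets were at most 3.35 on each array, with margins of 0.03 and -0.12. ECRG4, a secreted peptide precursor, stood at 5.10, 6.31, 7.48 and 6.34.

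On their chosen probe sets, THBS1 and EPYC belonged to the group of members with a large response to Pam3CSK4. THBS1 encodes thrombospondin, an adhesive glycoprotein made by monocytes and also stored in platelet granules. It stood at 3.32 at rest, 7.48 with Pam3CSK4, 8.79 at 12 h and 7.83 at 24 h on the probe set of highest mean. The 6 other THBS1 probe sets had margins from -0.07 to 0.58, and the highest of these belonged to the one that reached 6.51 at 12 h. Their differences between Pam3CSK4 and rest ran from -0.11 to only 1.01, so the large response was read by the chosen probe set alone. EPYC, a small proteoglycan of cartilage, stood at 3.18, 6.70, 7.91 and 7.06. Of the platelet markers given above, PF4 and PPBP were below the floor on each array. At 12 h 9 of the 14 reached it, as 9 did at rest, with a small median margin of 0.16. Their part in the THBS1 value was not tested.

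Of the wider list of adhesion, matrix and guidance genes, 27 were tested and 3 had a margin of at least 0.8: NPTX1, COL8A1 and THBS1. Such a margin is what made them members, so this count restates the rule, and 0.432% of all genes tested had one. The list was also made with earlier results of these data known. Its median margin was 0.13, against -0.09 over all genes tested. TNFAIP6, a hyaluronan-binding protein, came next at 0.57.

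Enzymes, transport proteins and a calcium-binding protein made up 7 members. CALB1, the calcium buffer calbindin, stood at 6.59 at 12 h and was under the floor elsewhere, with 3.87 at rest, 3.68 with Pam3CSK4 and 5.37 at 24 h. It was the member with the largest part of the step left at 24 h, 58.1% on the log2 scale. It was also the only one at least 2-fold above Pam3CSK4 at 24 h, against 0.0298% of all genes. Both values of that difference are under the floor, so its size is uncertain. A second CALB1 probe set ran likewise at 3.68, 3.57, 5.86 and 4.67, all under the floor. HGD, which breaks down homogentisate in tyrosine catabolism, stood at 6.01, 6.13, 7.26 and 6.05. Of its 3 other probe sets, margins were 1.14, 0.63 and 0.02.

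SRXN1 encodes sulfiredoxin, which repairs oxidised peroxiredoxins and is a target of the antioxidant factor NRF2. It was level outside the 12 h array, with 8.40 at rest, 8.53 with Pam3CSK4, 9.43 at 12 h and 8.57 at 24 h. Of 17 NRF2 targets tested, SRXN1 alone had a margin of at least 0.8, which is what made it a member, against 0.432% of all genes tested. The list median was 0.25, against -0.09 over all genes tested. OSGIN1 followed at 0.78, the cystine transporter gene SLC7A11 at 0.55 and thioredoxin reductase TXNRD1 at 0.45.

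CKB, brain-type creatine kinase, stood at 8.41 at rest, 8.80 with Pam3CSK4, 9.72 at 12 h and 8.77 at 24 h. GJA3, a gap junction protein, stood at 7.28, 7.91, 9.14 and 8.18 on the 4 arrays, and a second probe set had a margin of 0.16. PNPLA1, a patatin-like enzyme of lipid metabolism, stood at 5.10, 6.57, 7.66 and 6.78. SLC12A8, of the cation-chloride cotransporter family, had the lowest 12 h value, 6.28, with 5.19, 5.42 and 5.39 on the other arrays.

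Among the other protein-coding members, FAM111B, a serine protease gene, stood at 6.79 at rest, 6.46 with Pam3CSK4, 7.87 at 12 h and 6.77 at 24 h. It was slightly lower with Pam3CSK4 than at rest, and its second probe set had a wider margin than the chosen one, 1.42 against 1.10. PXDC1, a PX-domain protein, stood at 7.25, 8.42, 9.39 and 8.39, with a margin of 0.42 on a second probe set.

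By gene type, 8 members are long non-coding RNAs in RefSeq, and 33 are protein-coding. Beside TOX-DT, CT75, a cancer-testis transcript, stood at 5.69 at rest, 7.58 with Pam3CSK4, 9.10 at 12 h and 8.03 at 24 h. LINC00996, next to the GTPase gene GIMAP8, stood at 7.93, 8.12, 9.21 and 8.27, while GIMAP8 had 6.76, 8.49, 8.97 and 8.84 and no comparable return at 24 h. LINC00597 lies within the span of PEAK1, also a member, and stood at 4.75, 5.81, 6.93 and 5.69. Whether the LINC00597 probe set also reads PEAK1 RNA was not tested.

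ZMIZ1-AS1 stood at 5.49 at rest, 5.62 with Pam3CSK4, 6.50 at 12 h and 5.69 at 24 h. Its neighbour ZMIZ1, a transcriptional co-activator gene, had a peak too, at 9.59, 10.26, 11.02 and 10.38, under the threshold of 0.8. GIRGL, next to MACC1, stood at 5.30, 5.86, 6.85 and 5.93, and MACC1 was under the floor on all 4 arrays. LOC105371622, which overlaps CACYBP, stood at 6.15, 6.02, 7.02 and 6.15, while CACYBP lay between 12.45 and 12.54 on each array. LINC00622 stood at 4.08, 5.38, 6.37 and 5.35. Of these 8 RNAs, 5 were under the floor with Pam3CSK4, so the exact size of their peak depends on background.

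In all, 10 of the 41 were under the floor with Pam3CSK4: those 5, COL8A1, CALB1, HGD, SLC12A8 and IL18R1. At rest 24 were under it, and 17 were at or above it on all 4 arrays.

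The thresholds did not use the resting value, so the rule did not fix the difference between Pam3CSK4 and rest. The Pam3CSK4 array itself entered the rule, and the resting array entered the floor and the choice of probe set, which is the one of highest mean over all 4 arrays. Of the 41, 21 were at least 2-fold higher with Pam3CSK4 than at rest, where 4.14% of all genes tested were. Only 1, CEACAM6, was at least 2-fold lower, where 1.71% of all genes were, and 19 differed by less. The median difference was 1.07 log2, against -0.05 over all genes tested, and the lower and upper quartiles of the members were 0.23 and 1.89, against -0.22 and 0.14. That median depended on the probe sets read: it was 0.76 with all probe sets of a gene averaged and 0.63 without probe sets of the _x_at and _s_at kinds, where 13 of 33 genes with a value were at least 2-fold higher. The resting array also had the widest GAPDH control gap, 2.16 log2 against 0.59 with Pam3CSK4, and its part in these differences was not tested. Of the 17 genes left out by symbol, 14 were at least 2-fold higher with Pam3CSK4, and the median of the 17 was 2.49.

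The 21 genes that were high with Pam3CSK4 had a median difference of 1.89 from rest and then a 12 h step of 1.12. RASGRP1 led them at 5.19, followed by THBS1 at 4.16, MX1 at 4.07, EPYC at 3.52, DOCK4 at 3.22, TOX at 2.90 and TOX-DT at 2.72. These are readings of the chosen probe sets. Other probe sets of THBS1, DOCK4 and TOX had differences from rest of at most 1.01, 1.02 and 0.07. At 12 h each stood at least 2.08 log2 above rest. The resting values of 15 of the 21 were under the floor, which makes the exact size of the Pam3CSK4 step uncertain there.

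The 19 members under 2-fold with Pam3CSK4 had a median difference from rest of 0.23 and a 12 h step of 1.09. The rule required a 12 h step of at least 0.8 of every member, so the likeness of the steps in both sets is set by the selection. Of these, 6 belonged to the 7 enzyme and transport genes, of which PNPLA1 was the exception. AXL differed from rest by -0.02, HGD by 0.12, SRXN1 by 0.13, NPTX1 by 0.14, CALB1 by -0.19 and FAM111B by -0.33. Of those named, all but CALB1 had like values on the other 3 arrays, within 0.33 of each other, and stood higher at 12 h.

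**Figure D2:**
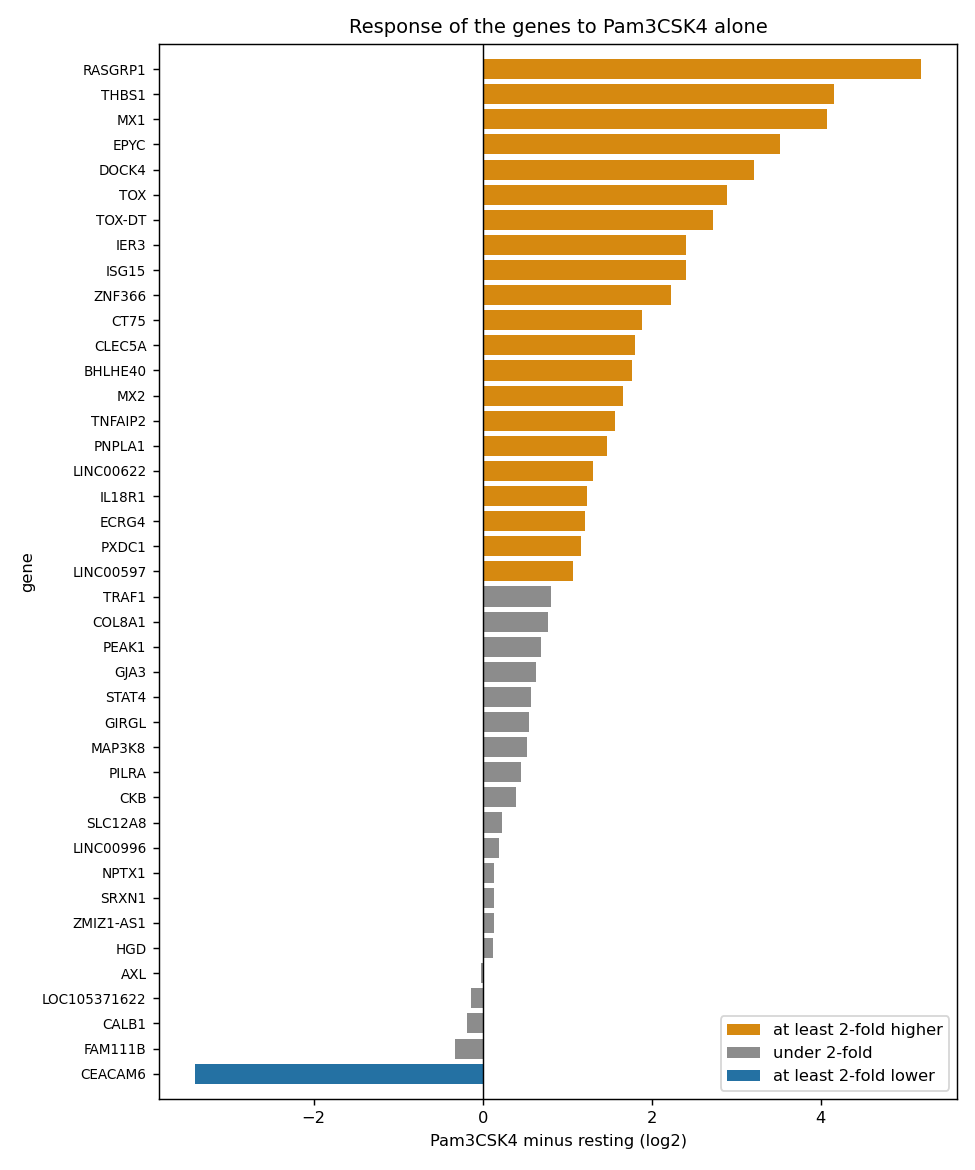
Difference between the Pam3CSK4 and resting arrays in log2 (horizontal axis) for each of the 41 genes (vertical axis), 1 bar per gene, 1 array per group, no error. Orange bars mark the 21 genes at least 2-fold higher, led by RASGRP1 at 5.19, grey bars the 19 that differed by less, and the blue bar CEACAM6 at -3.40.

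At 24 h the difference of the members from Pam3CSK4 alone had a median of 0.11 log2, against -0.01 over all genes tested. It lay within 0.25 either way in 30 of the 41, a lower share than the 12503 of 13422 over all genes tested. It was above 0 in 30 and below in 11, where 47.5% of all genes tested were above. The 3 arrays concerned are those the rule used, and both differences share the Pam3CSK4 array. After CALB1, the largest amounts left at 24 h were those of CT75, 0.45, DOCK4, 0.41, MAP3K8, 0.38, EPYC, 0.36, and THBS1, 0.35. CEACAM6 was the lowest, 0.33 below Pam3CSK4.

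**Figure D3:**
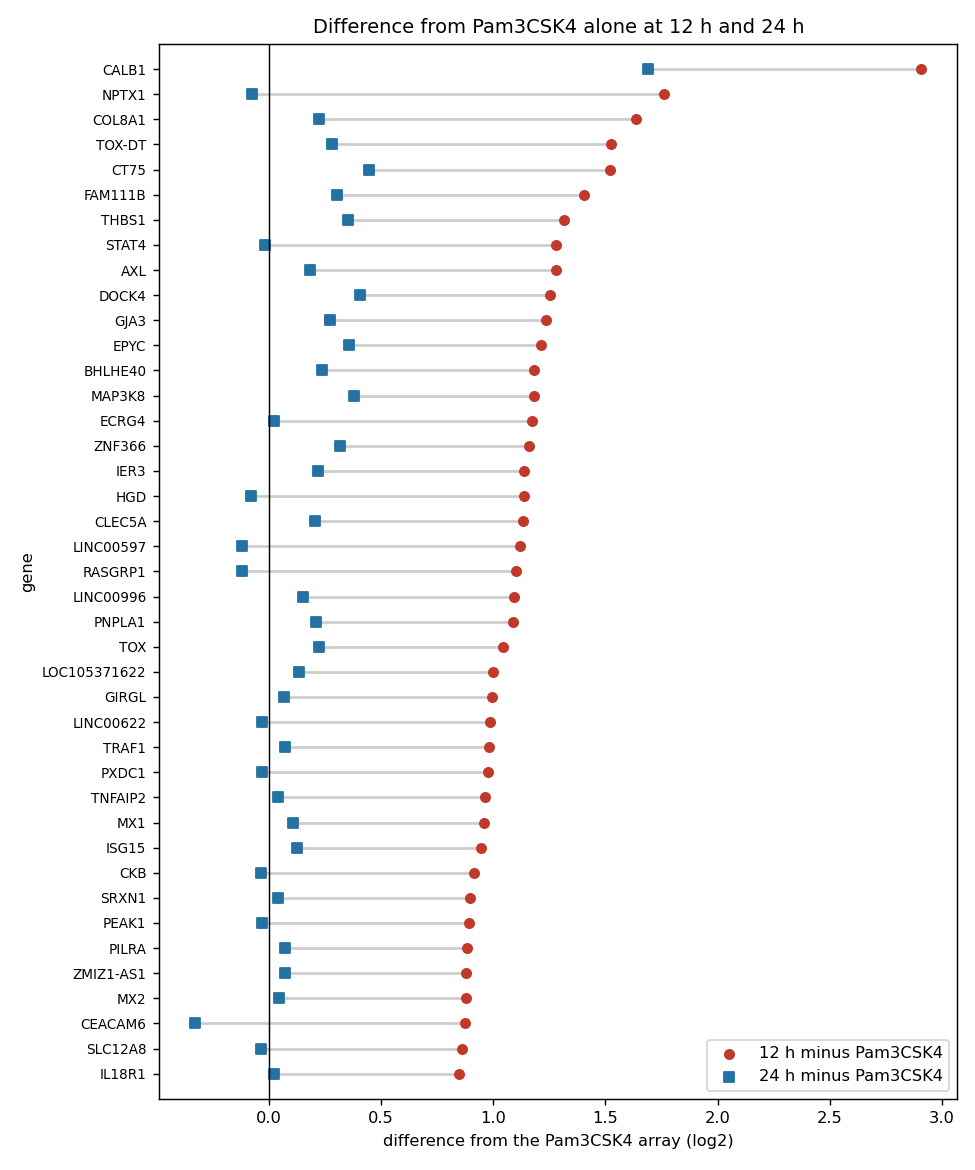
Difference from the Pam3CSK4 array in log2 (horizontal axis) at 12 h (red circles) and 24 h (blue squares) for each of the 41 genes (vertical axis), joined by grey lines, 1 array per group. Of the 24 h squares, 30 of 41 lie within 0.25 of 0, as do 12503 of all 13422 genes tested. CALB1 stands apart with 1.69 at 24 h, where its 24 h and Pam3CSK4 values are both under the floor.

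Readings by other probe sets were not used by the rule, though they come from the same RNA. Of the 41 members, 21 have 1 probe set and 20 have several, which gives 30 further readings. Among these, 25 were highest at 12 h of the 3 arrays with Pam3CSK4, and the median margin was 0.33. Of the 14 that reached the floor on an array, 13 were highest at 12 h and 7 had a margin of at least 0.4. Over all genes, 36.0% of such second readings were highest at 12 h and 2.62% had such a margin. Among the 14, the readings of FAM111B, HGD, PILRA, PXDC1 and BHLHE40 and the THBS1 reading of 6.51 reached the floor at 12 h only. The filter took these in through the 12 h array itself, so the shares give no separate support for the peak. FAM111B and CEACAM6 repeated a margin of at least 0.8 on a probe set that reached the floor. CALB1 and HGD did so on a probe set under it. The size of the peak was thus smaller on most second readings than on the chosen one, whose peak had chosen the gene.

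**Figure D4:**
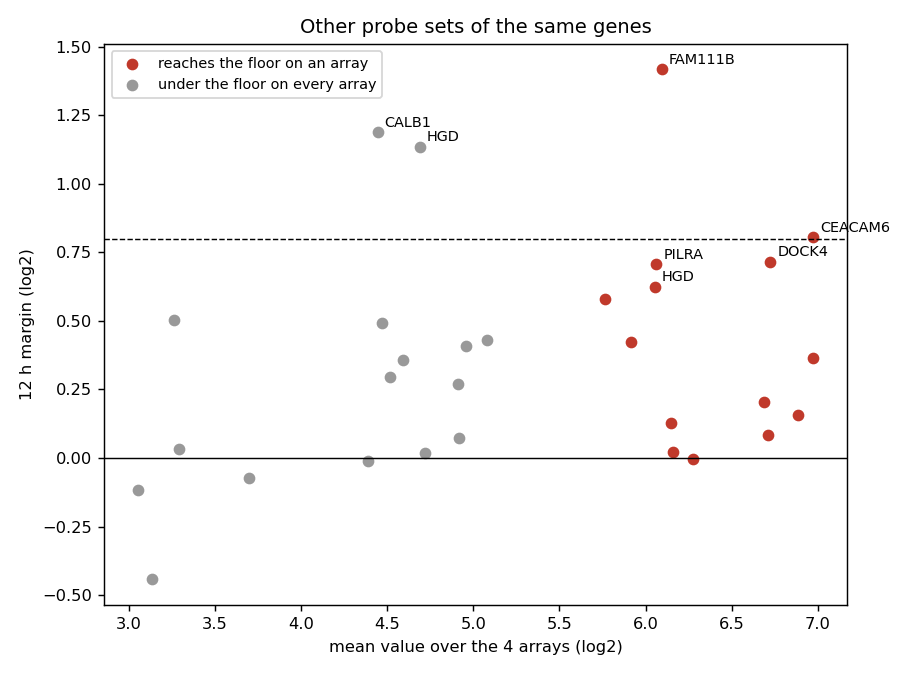
Margin of the 12 h value over the higher of Pam3CSK4 and 24 h in log2 (vertical axis) against the mean value over 4 arrays in log2 (horizontal axis) for the 30 other probe sets of the genes, 1 point per probe set. Red points reach the floor on an array, grey points do not. The dashed line is the threshold of 0.8, passed by FAM111B, CALB1, HGD and CEACAM6, and 25 of the 30 points lie above 0.

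Genes outside the 41 with the most like course over the 4 arrays were ranked by the distance of their mean-centred values from the mean of the members. The nearest was RSAD2, an antiviral enzyme left out by symbol, at a distance of 0.21 log2, then the metallothionein MT1M, also left out, at 0.21. HELZ2, an interferon-induced helicase gene, followed at 0.23 and the anion transporter gene SLC26A11 at 0.26. TNFSF13B, the B-cell survival factor BAFF, was at 0.31, and the others of the nearest 10 were ZC3H12C, DUSP10, RIT1, NMRAL2P and IL23A. HELZ2 stood at 7.08, 8.45, 9.32 and 8.57, a margin of 0.75. Of the members themselves, ECRG4 lay closest to that mean, at 0.13, and CEACAM6 farthest, at 4.26.

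The other lists are given by their margins, of which at least 0.8 was held by 0.432% of all genes tested and at least 0.4 by 2.85%. Of 25 cytokines and growth factors tested, 5 had a margin of at least 0.4 and 0 of at least 0.8, and IL1B, at 0.77, was nearest. Calcium-binding and signalling genes had 6 of 20 at 0.4 and 1 at 0.8, CALB1. The dendritic maturation list had 3 of 17 at 0.4, led by CD83, and enzymes of purine, amine and lipid metabolism 3 of 21, led by ADA at 0.69. Heat shock and unfolded protein genes had 3 of 23, with BAG3, a chaperone partner, at 0.56. Immediate early and MAPK feedback genes had 2 of 26, with a median of -0.13. In lists of this size, 0 at a margin of 0.8 does not set a list apart from genes at large. In all, 11 of the 41 members stood in one of the lists, and 30 stood in none.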

How the data were processed

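Expression was measured on 4 Affymetrix arrays with biotin-labelled RNA, 1 per group, grouped by source label. For the co-culture arrays, the hour numbers in the titles differ from those in the source names, which were used. The deposited log2 values were made by the authors with RMA in affy 1.28.1, per the submitters' processing notes. RMA forces arrays to a common distribution, so a global change in RNA is not seen. The values ran from 2.54 to 15.22, with column medians of 6.17 to 6.22. Scanner images, detection calls and depth were not used here. Of 54675 probe sets, 41091 name 1 gene, 1801 several and 11721 are unlisted, and 62 are controls. A gene was read by its probe set of highest mean. All 41 symbols matched RefSeq GRCh38.p14.

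Members, lists and the rule for named genes (all members, with each array's value) were chosen with earlier results of these data known. With 1 array per group, differences are described without test. A list gene was tested, in the sense of entering a count, where it reached the floor on an array, the median of all values. The promoter windows are RefSeq's. Alternatives were averaged probe sets, omission of _x_at and _s_at probe sets, cyclic loess (limma 3.58.1, R 4.3.3, 3 iterations), other margins, floors and folds. Python 3.11.15, numpy 2.4.6, pandas 2.3.3 and matplotlib 3.10.9 were used, and the selection was tested on simulated arrays.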

Additional observations from a re-analysis of the deposited data

Results flagged for a closer look

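Of the 41 genes, 11 were above Pam3CSK4 at 12 h and below it at 24 h, opposite directions whose difference was not tested, with 1 array per time. CEACAM6 differed by 0.87 log2 at 12 h and by -0.33 at 24 h. LINC00597 stood at -0.119 at 24 h against 1.12 at 12 h, and RASGRP1 at -0.119 against 1.10. HGD was at -0.080 and NPTX1 at -0.077, against 1.14 and 1.76. The other 6 were nearer to 0 at 24 h, with SLC12A8 at -0.0329, CKB at -0.0328, LINC00622 at -0.0309, PXDC1 at -0.0285, PEAK1 at -0.0281 and STAT4 at -0.0154.

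Probe sets that name no gene or several were not used above. Of 5292 that reached the floor on an array, 36 met the same thresholds at 12 h, or 0.68%, and 34 of the 36 have no gene listed. Their median margin was 0.95 log2. The widest, 2.42, belonged to a probe set with no gene listed, whose 4 values were 5.09 for resting cells, 4.77 for Pam3CSK4 alone, 7.21 for 12 h and 4.79 for 24 h.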

How the results depend on the processing

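The number of members, 41, depended on the definition. It was 26 with probe sets averaged, of which 24 were among the 41, 110 with a margin of 0.6 log2, 12 with a margin of 1 and 22 with a floor at the 75th percentile of values. Without _x_at and _s_at probe sets it was 32 (29 shared), with cyclic loess 46 (34 shared) and with no floor 46 (41 shared). Of the 41 genes, 21 were at least 2-fold higher with Pam3CSK4, and 13 of 33 were once those probe sets were omitted. Then 8 genes had no value, 6 of them among the 21, and PXDC1 and THBS1 were read by another probe set that was under 2-fold. The median difference of Pam3CSK4 from rest, 1.07, was 0.76 with probe sets averaged and 0.63 without those probe sets. The count lower with Pam3CSK4 was 1 and the median 24 h difference was between 0.07 and 0.11 in each setting run. Single margins stayed above 0 in each setting: 0.73 to 1.82 with cyclic loess, 7 of 41 below 0.8, 0.27 to 1.76 averaged, 17 of 41 below 0.8, and 0.27 to 1.76 without those probe sets, 4 of 33 below 0.8. ZNF366 (0.27), THBS1 (0.30), MAP3K8 (0.44) and PEAK1 (0.46) were smallest when averaged. No paired analysis was possible because each group has 1 array. Values under the floor give no exact difference.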
